A study of Arabidopsis thaliana with 24 samples.

Results

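Flower buds labelled as carrying both urt1-1 and heso1-4 were compared with wild-type (WT) flower buds of Arabidopsis thaliana, taking every flower library that the labels give either genotype. That makes 6 of the 24 libraries of the series, 3 per genotype, and the other 6 flower libraries (3 urt1-1 and 3 labelled heso1-4) served to share the estimate of spread and to set each value beside the single insertions. The study measured steady-state RNA in 2 tissues, unopened flower buds and dry mature seeds, to ask how the terminal uridylyltransferases (TUTases) URT1 and HESO1 affect messenger RNA levels. All plants were of the Col-0 accession, were grown on soil in a long-day greenhouse and carried no treatment. The mutants were T-DNA insertion lines, 1 line per gene (SALK_087647C for urt1-1 and a GABI-Kat line for heso1-4), so an effect of the gene and an effect of the line cannot be told apart. Each library pooled buds of at least 5 plants taken 2 weeks after flowering began, and the labels call the 3 libraries of a genotype biological replicates.

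URT1 uridylates messenger RNAs whose poly(A) tails have been shortened, and HESO1 is best known for adding uridines to small RNAs that lack the methyl group put on by HEN1. Uridine tails can mark an RNA for decay, and on messenger RNAs they also limit further shortening of the tail by exonucleases. In Arabidopsis, loss of URT1 alone is known to change tails more than RNA levels, while combined with loss of 5′-to-3′ decay it lets small interfering RNAs (siRNAs) form from coding transcripts.

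Depth and tissue were checked first. The flower libraries held 24177931 to 35121859 counts each in the 6 libraries compared. Floral identity genes were strongly expressed, with the class B gene PI at 155, 142 and 128 CPM, the counts after TMM scaling of every library to an equal total, in WT replicates 1, 2 and 3 and at 99.2, 198 and 129 CPM in the libraries labelled heso1-4 urt1-1. Seed storage and oil body genes summed to 6.62 to 9.30 CPM over the 8 members tested, with CRA1 and CRU3 as their most abundant members at no more than 2.55 CPM. Plastid genes took 20.85% to 26.86% of counts, a mean of 24.36% ± 3.09 (SD, n = 3) in WT and 23.27% ± 2.25 in the libraries labelled heso1-4 urt1-1 (two-sided exact permutation p = 0.5, where 0.1 is the smallest p that 3 against 3 allows). In bulk tissue, fewer cells of a type and less RNA per cell cannot be told apart.

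URT1 RNA was almost lost, and HESO1 RNA was higher. URT1 (AT2G45620, chr2:18792864-18795904, plus strand, protein-coding) stood at 42.7, 53.8 and 45.2 CPM in WT and at 2.28, 2.54 and 2.64 CPM in the libraries labelled heso1-4 urt1-1. These are counts of 1562, 1461 and 1515 against 61, 72 and 92, and the groups lay far apart. The mean left was 5.27% of the WT mean, a log2 fold change of −4.24 ± 0.16 (SE; 95% interval −4.59 to −3.90; edgeR quasi-likelihood adjusted p = 3.5e-07). The urt1-1 libraries held 2.79, 2.56 and 1.89 CPM, and the labelled double mutant differed from them by 0.04 ± 0.15 (log2, edgeR adjusted p = 1.0).

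HESO1 (AT2G39740, chr2:16575752-16579120, plus strand, protein-coding) stood at 14.2, 14.2 and 13.4 CPM in WT and at 84.0, 46.3 and 64.8 CPM in the libraries labelled heso1-4 urt1-1. The lowest of the latter was above the highest WT library, and their mean was 4.67 times the WT mean. HESO1 therefore rose by 2.22 ± 0.19 on the log2 scale (95% interval 1.80 to 2.64, edgeR adjusted p = 0.0016). The label gives the genotype and not the level of HESO1 RNA. The call was lost when only the 6 libraries compared entered the fit (log2 2.22, edgeR adjusted p = 0.113) and with replicates 2 and 3 of each genotype alone (2.00, 0.0656). The counts cover the whole span of the gene, introns included, and no source used here gives the insertion site, so they do not measure full-length HESO1 messenger RNA. The genotype is given below as labelled.

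The rise in HESO1 was far smaller than in the libraries labelled heso1-4 alone. Those held 854, 752 and 810 CPM, 12.4 times the mean of the libraries labelled heso1-4 urt1-1, and every one of them lay above every library labelled heso1-4 urt1-1. The difference was −3.63 ± 0.20 (log2, edgeR adjusted p = 1.5e-05). In urt1-1 alone HESO1 stood at 14.3, 11.7 and 14.7 CPM, overlapping WT, and the labelled double mutant exceeded it by 2.26 ± 0.19 (edgeR adjusted p = 0.0014). Both insertions together thus departed from the sum of each alone by −3.59 ± 0.27 on the log2 scale (edgeR adjusted p = 0.00069). HESO1 was the single gene of 22841 for which this departure passed the test, 0.00438% of genes tested, with 436 genes at an unadjusted p under 0.05.

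ARP9 (AT5G43500, chr5:17469490-17473619, plus strand), which encodes actin-related protein 9, was the only other gene to rise by edgeR's test in the fit of 12 libraries. It stood at 16.7, 13.9 and 14.0 CPM in WT and at 37.1, 32.7 and 35.7 CPM in the libraries labelled heso1-4 urt1-1. The groups did not overlap, and the mean was 2.36 times that of WT (log2 1.24 ± 0.12, 95% interval 0.99 to 1.49, edgeR adjusted p = 0.0024). Like the HESO1 call, the ARP9 call was lost with only the 6 libraries in the fit (edgeR adjusted p = 0.113) and with replicates 2 and 3 alone (0.0511).

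Among libraries labelled as carrying heso1-4, those with and without urt1-1 overlapped for ARP9, which was not so for HESO1. The urt1-1 libraries held 13.4, 15.8 and 16.3 CPM, and the labelled double mutant exceeded them by 1.21 ± 0.12 (log2, edgeR adjusted p = 0.0031). The libraries labelled heso1-4 held 41.1, 35.9 and 38.9 CPM and overlapped those labelled heso1-4 urt1-1, with a difference of −0.14 ± 0.11 (edgeR adjusted p = 1.0). The departure from the sum of both insertions was −0.16 ± 0.16 (edgeR adjusted p = 1.0).

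Because HESO1 and ARP9 both rose, the bases just before each gene's annotated start are shown, from the RefSeq TAIR10.1 assembly, whose gene spans match those of the deposited table. The HESO1 window is the 250 bases at chr2:16575502-16575751. The ARP9 window is the 177 bases at chr5:17469313-17469489, which end upstream at the neighbouring gene AT5G43490. Both are on the plus strand and overlap no annotated gene, and capitals mark matches to TATAAA or its reverse complement TTTATA.
HESO1 upstream: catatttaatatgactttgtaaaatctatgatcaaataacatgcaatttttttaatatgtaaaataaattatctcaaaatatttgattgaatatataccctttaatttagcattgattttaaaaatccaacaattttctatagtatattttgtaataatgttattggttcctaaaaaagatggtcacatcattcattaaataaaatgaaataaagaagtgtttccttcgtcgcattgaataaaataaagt
ARP9 upstream: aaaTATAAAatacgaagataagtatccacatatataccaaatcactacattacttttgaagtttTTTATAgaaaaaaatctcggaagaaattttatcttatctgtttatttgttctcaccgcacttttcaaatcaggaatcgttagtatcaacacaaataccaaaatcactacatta
Both strands were searched for TATAAA (the TATA box sequence), CACGTG (the G-box) and GGCCCA (a site II element). The HESO1 window held 0 matches, and the ARP9 window held 2 TATAAA matches and no other. They lay 174 and 113 bases before the annotated start, the nearer as the reverse complement. Whether either acts as a TATA box was not tested. Of 33054 gene starts, 46.1% had TATAAA, 5.86% CACGTG and 12.4% GGCCCA within 250 bases before them, and 36.6%, 4.73% and 10.8% did within 177 bases.

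By edgeR in the fit of 12 libraries, the 3 genes above were all that passed. Of 33243 genes counted, 22841 were tested, and 2 rose (0.00876%) and 1 fell (0.00438%), together 0.0131%. At an unadjusted p under 0.05 there were 646 genes (2.83%), 412 of them with a higher and 234 with a lower value in the libraries labelled heso1-4 urt1-1. DESeq2 called 9 genes higher and 2 lower on the same counts. The libraries of the groups did not overlap for 1776 genes (7.78%), of which 914 (4%) lay higher and 862 (3.77%) lower in the labelled double mutant. The median log2 fold change over all genes tested was 0.0006 and 50.1% of values were positive.

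The interval of each gene's fold change shows what could have been seen at this depth and spread. The biological coefficient of variation was 0.268, and the median SE of a log2 fold change was 0.206. For 16279 genes (71.3%) the whole 95% interval lay between −1 and 1, so that for these genes a difference of 2-fold or more is outside the interval. Among 12769 genes with a mean of at least 10 CPM, this held for 11663 (91.3%). Replicates of a genotype differed by far more than sampling noise (chi-square per degree of freedom 41.6 to 78.8), with replicate 1 labelled heso1-4 urt1-1 the least like the others (correlation of log2 CPM with the other 5 libraries 0.945 to 0.971).

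**Figure D1:**
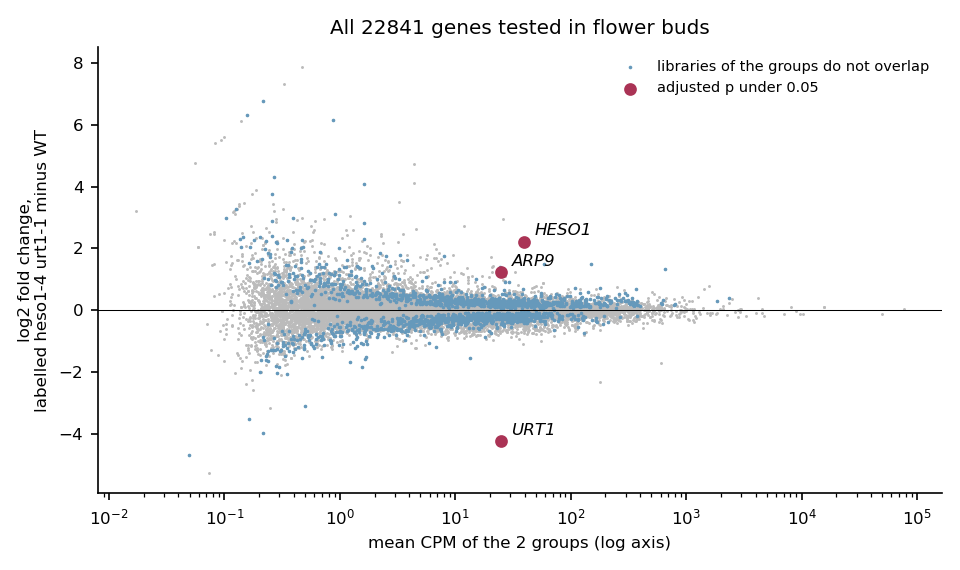
Log2 fold change of libraries labelled heso1-4 urt1-1 against WT (vertical) by mean CPM on a log axis (horizontal) for 22841 genes; blue points are genes whose libraries do not overlap between the groups and red points the 3 that passed the test. URT1, HESO1 and ARP9 stand clear of a cloud that narrows as CPM grows.

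Below the threshold, the genes with the smallest p that separated the groups were mostly small, uniform differences. ARFA1E, which encodes an ADP-ribosylation factor GTPase of vesicle traffic, held 229, 258 and 233 CPM in WT and 339, 353 and 359 CPM in the libraries labelled heso1-4 urt1-1 (log2 0.55 ± 0.10, edgeR adjusted p = 0.68, DESeq2 1.3e-06). AT5G43460, an HR-like lesion-inducing protein gene at chr5:17459873-17462516 that lies before RPP8 and ARP9 on the same chromosome, held 78.7, 79.8 and 90.9 against 136, 130 and 141 CPM (0.70 ± 0.13, edgeR 0.68, DESeq2 0.0023). Both genes separated the groups with room to spare, yet neither passed edgeR's test over all genes. In urt1-1 against WT, ARFA1E stood at 0.41 ± 0.10 and AT5G43460 at 0.49 ± 0.13. In the libraries labelled heso1-4 against WT they stood at 0.07 ± 0.10 and 0.05 ± 0.13.

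CID4, whose protein carries a domain that binds the poly(A)-binding protein, held 57.4, 57.0 and 51.9 CPM in WT and 84.0, 72.0 and 73.6 CPM in the labelled double mutant (log2 0.46 ± 0.09, edgeR adjusted p = 0.68, DESeq2 0.0056). TCTP, the translationally controlled tumor protein gene, held 254, 282 and 230 against 364, 381 and 333 CPM (0.49 ± 0.11, edgeR 1.0, DESeq2 0.020). ATRBP45C, an RNA-binding protein gene, held 134, 155 and 147 against 191, 183 and 206 CPM (0.41 ± 0.10, edgeR 1.0, DESeq2 0.018). DESeq2 also called AT1G30880 higher (uncharacterised, 0.57 ± 0.12 by edgeR) and AT1G09640, which was named after its value was seen (0.35 ± 0.08 by DESeq2, adjusted p = 0.020). The other genes the naming rule gave on the higher side were AT2G33850 (E6-like protein, 0.47 ± 0.11), AT4G11211 (uncharacterised, 0.76 ± 0.18), AT5G23900 (ribosomal protein L13e, 0.55 ± 0.13) and AT2G01010 (an 18S ribosomal RNA gene, taken up further on), each with an edgeR adjusted p of 1.0. In urt1-1 against WT, TCTP stood at 0.37 ± 0.11, ATRBP45C at 0.23 ± 0.10, AT1G30880 at 0.41 ± 0.12 and AT2G33850 at 0.68 ± 0.11. AT4G11211 stood at 0.59 ± 0.18, AT5G23900 at 0.31 ± 0.13 and CID4 at 0.10 ± 0.09. In the libraries labelled heso1-4 against WT these genes lay from −0.03 ± 0.10 (ATRBP45C) to 0.24 ± 0.18 (AT4G11211). None of them passed edgeR's test in either comparison.

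On the lower side RXF12, which encodes a glycosyl hydrolase of family 10 (xylanases), held 23.9, 21.7 and 14.8 CPM in WT and 7.89, 5.39 and 7.61 CPM in the libraries labelled heso1-4 urt1-1 (log2 −1.53 ± 0.29, edgeR adjusted p = 0.68, DESeq2 0.00071). The urt1-1 libraries (11.5, 16.3 and 23.8 CPM) and those labelled heso1-4 (10, 15.3 and 12.4 CPM) lay between or among these. AT3G26742 (uncharacterised) held 2.38, 2.54 and 2.54 against 0.860, 1.13 and 0.517 CPM (−1.58 ± 0.39), and AT5G18840, a sugar-transporter-like gene of the major facilitator superfamily, 3.23, 1.80 and 2.42 against 0.860, 0.493 and 1.26 CPM (−1.50 ± 0.41). DCI1, which acts in the breakdown of unsaturated fatty acids, and HPT1, the homogentisate phytyltransferase of vitamin E synthesis, differed by −0.40 ± 0.10 and −0.36 ± 0.10. AT3G53940 (mitochondrial carrier), UMAMIT47 (transporter), AT3G26440 (DUF707 protein) and AT1G79890 (RAD3-like helicase) differed by −0.47 ± 0.13, −0.46 ± 0.13, −0.66 ± 0.19 and −0.63 ± 0.18. The edgeR adjusted p was 1.0 for each of these 8 genes.

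Up to 3 annotated genes on each side of URT1, HESO1 and ARP9 were examined, and none was called by edgeR or DESeq2. AT5G43460, which DESeq2 called, is the gene just beyond RPP8 and lies outside the 3 neighbours of ARP9. In urt1-1 against WT, AT5G43460 stood at 0.49 ± 0.13 and ARP9 at 0.03 ± 0.11 (log2). In the libraries labelled heso1-4 against WT, AT5G43460 stood at 0.05 ± 0.13 and ARP9 at 1.37 ± 0.12. AT2G45630, a dehydrogenase family gene that starts just after URT1 ends, held 6.62, 9.57 and 8.11 CPM in WT and 4.90, 5.96 and 4.42 CPM in the libraries labelled heso1-4 urt1-1. The groups did not overlap, but the difference of −0.67 ± 0.18 did not pass (edgeR adjusted p = 1.0), and the urt1-1 libraries lay at 6.07, 5.69 and 4.60 CPM. The 5 other tested neighbours of URT1 lay from −0.17 ± 0.38 (AT2G45610) to 0.40 ± 0.65 (AT2G00930), and the tested neighbours of HESO1 from −0.10 ± 0.12 (AT2G39750, which overlaps the 3′ end of HESO1 on the other strand) to 0.29 ± 0.19 (RCA, rubisco activase). Beside ARP9, RPP8, a disease resistance gene, stood at 0.14 ± 0.14, and the pollen tube attractant gene LURE1.3 had 21 counts in WT replicate 1, 0 in both other WT libraries and 4, 2 and 0 in the labelled double mutant. MIR8121, AT5G43480, AT5G43490, LURE1.2 and LURE1.4 did not pass the count filter.

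The copies of ribosomal DNA were examined after their values were seen, because genes of the chromosome 2 and chromosome 3 copies stood on opposite sides of WT. The libraries were depleted of ribosomal RNA, so these counts are what depletion left, and the copies are nearly identical. The 18S genes AT2G01010 and AT3G41768 match at 1806 of 1808 bases, AT2G01020 and AT3G41979 at 164 of 164, and the miRNA precursor genes MIR5642b and MIR5642a at 369 of 375 aligned positions. Both precursors carry the same mature miR5642, shown here with its seed (bases 2 to 8) in capitals because it does not tell the copies apart.
miR5642 (MIR5642b, chr2:3145-3164, plus strand): uCUCGCGCuuguacggcuuu
miR5642 (MIR5642a, chr3:14197116-14197135, plus strand): uCUCGCGCuuguacggcuuu

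On chromosome 2 the values of 4 of the 5 genes tested lay above WT. AT2G01010 held 2.33, 1.88 and 1.37 CPM in WT and 8.08, 4.62 and 4.68 CPM in the libraries labelled heso1-4 urt1-1 (log2 1.64 ± 0.37). MIR5642b (AT2G03855, chr2:2805-3176) held 30.1, 34.96 and 26.9 against 93.1, 106 and 60.7 CPM (1.50 ± 0.39), and AT2G01008, which contains most of it on the same strand and shares its reads, 79.6, 89.0 and 67.0 against 223, 279 and 162 CPM (1.49 ± 0.38). None of these 3 genes overlapped between the groups, and none passed (edgeR adjusted p = 1.0). The libraries labelled heso1-4 lay at 21.6, 73.6 and 29.1 CPM for AT2G01008 and those of urt1-1 at 142, 140 and 124 CPM, so the urt1-1 libraries lay between WT and the labelled double mutant.

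On chromosome 3 the log2 fold changes were negative, and for most genes tested the libraries overlapped WT. AT3G41979, annotated as 5.8S ribosomal RNA, held 2.27, 2.13 and 2.83 CPM in WT and 0.935, 0.493 and 0.603 CPM in the libraries labelled heso1-4 urt1-1, without overlap (log2 −1.83 ± 0.31, edgeR adjusted p = 0.54). Against the libraries labelled heso1-4, at 4.49, 2.95 and 4.25 CPM, it was lower by −2.52 ± 0.31, and this difference passed (edgeR adjusted p = 0.043). Against those libraries URT1, HESO1 and AT3G41979 were all that passed, 0.0131% of genes tested. The chromosome 2 gene AT2G01020, identical to AT3G41979, went the other way without passing. It stood at 1.03 ± 0.40 against the libraries labelled heso1-4 and at 0.86 ± 0.40 against WT, so the values do not show a fall of this sequence as such. AT3G06355, which contains AT3G41979 on the same strand, stood at −1.20 ± 0.37 against the libraries labelled heso1-4. Against WT it stood at −0.28 ± 0.37, with overlap. The chromosome 3 18S gene AT3G41768 held 314, 55.9 and 532 CPM in WT against 91.8, 49.8 and 39.3 CPM (−2.32 ± 0.77), with WT replicate 2 within the range of the labelled double mutant, and MIR5642a held 185, 206 and 216 against 190, 146 and 106 CPM (−0.45 ± 0.20), also overlapping.

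Over the annotated genes of each copy, 4 of the 5 tested on chromosome 2 were positive, from −2.26 to 1.64, and 0 of the 7 tested on chromosome 3 were, from −2.32 to −0.03. These genes are not separate measurements, because overlapping genes each receive the read. On chromosome 3, MIR5642a overlaps AT3G06325 and AT3G41979 lies inside AT3G06355. AT3G06325 (−0.03 ± 0.23) and AT3G41761 (−0.16 ± 0.24) lay near 0, with overlap. The negative value on chromosome 2 was that of AT2G03875 (−2.26 ± 1.12). This gene held 0.328, 0.110 and 0.418 CPM in WT and 0.150, 0 and 0.0287 CPM in the libraries labelled heso1-4 urt1-1, with overlap. No gene of either copy passed edgeR's test against WT, while DESeq2 without its independent filtering called AT3G41979 (−1.85 ± 0.35, adjusted p = 0.00055). Nuclear genes annotated as ribosomal RNA together took 0.00593% to 0.0530% of counts in WT and 0.00451% to 0.0113% in the libraries labelled heso1-4 urt1-1. That share leaves out organellar genes and genes of the copies annotated otherwise, so it is not the whole of what depletion left. AT3G06365 of the chromosome 3 copy, annotated as a miscellaneous RNA, held 974, 197 and 1608 CPM in WT. In the libraries labelled heso1-4 urt1-1 it held 378, 224 and 248 CPM. Whether the depletion step or the assignment of reads between copies differed between libraries was not tested.

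**Figure D2:**
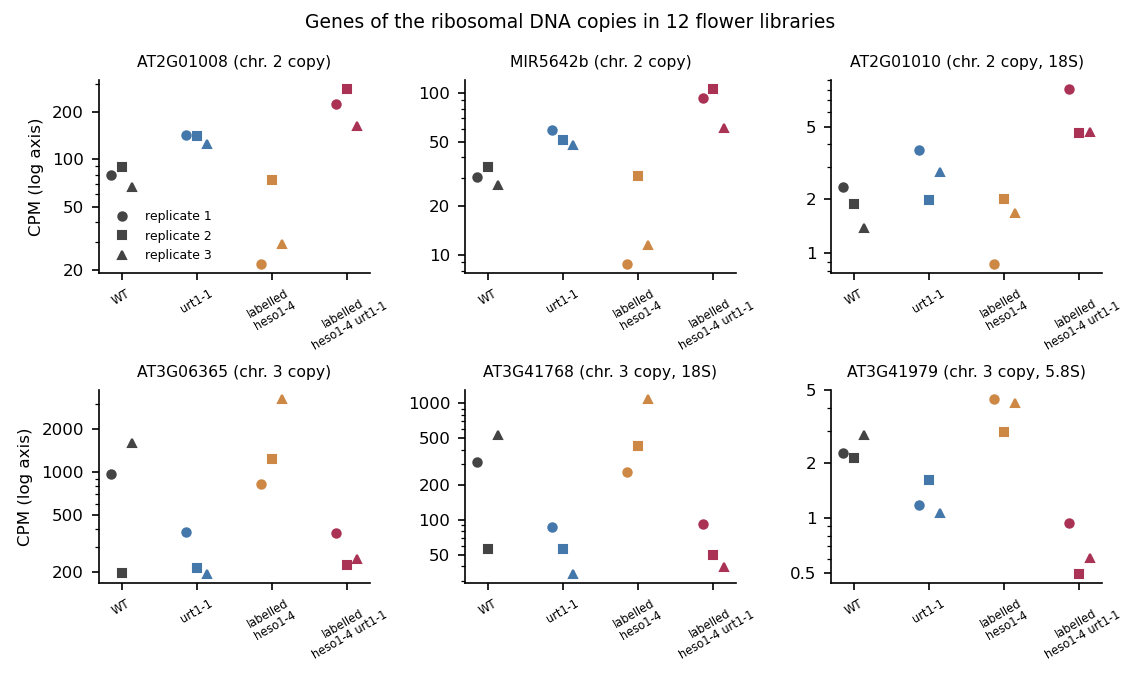
Level of 6 genes of the ribosomal DNA copies in each of 12 flower libraries, in CPM on a log axis, by labelled genotype; symbols are replicates, the upper row lies on chromosome 2 and the lower on chromosome 3. In the libraries labelled heso1-4 urt1-1 the upper 3 genes lie above all WT libraries, and the 5.8S gene AT3G41979 lies below them.

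Gene lists are described by their counts and median beside those of all genes. Over the 21 lists edgeR and DESeq2 called URT1 and HESO1 and no other member. At an unadjusted p under 0.05 there were, besides these, 2 of 22 ribosomal protein genes and 2 of 111 plastid genes. There was also 1 each of 51 miRNA targets and 28 photosynthesis, 8 seed storage, 14 defence, 24 stress and 10 heat shock genes. The other lists had 0, and the share over all genes tested was 2.83%.

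The relatives of the TUTases, 14 genes with URT1 and HESO1, showed no other call. The 4 canonical poly(A) polymerases and 8 further nucleotidyltransferase genes lay between −0.31 ± 0.43 (PAPS3) and 0.27 ± 0.73 (AT3G45760). PAPS1 held 27.7, 25.8 and 26.2 CPM in WT and 34.6, 26.1 and 32.5 CPM in the libraries labelled heso1-4 urt1-1 (log2 0.23 ± 0.12), and PAPS4 78.7, 67.7 and 64.2 against 90.7, 67.9 and 82.1 CPM (0.19 ± 0.14). These groups overlapped.

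None of 40 genes of the mRNA decay machinery passed, with a median log2 fold change of 0.04 against 0.0006 over all genes, and for 38 of them the 95% interval lay between −1 and 1. The cytoplasmic exonuclease XRN4 held 66.8, 66.1 and 69.1 CPM in WT and 75.1, 64.7 and 75.2 CPM in the libraries labelled heso1-4 urt1-1 (0.09 ± 0.10). The decapping enzyme DCP2 held 23.48, 29.8 and 27.5 against 26.3, 22.4 and 29.4 CPM (−0.05 ± 0.15), its partner DCP5 differed by 0.06 ± 0.16, and the nonsense-mediated decay helicase UPF1 by −0.02 ± 0.10. These core factors overlapped between the groups.

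The widest interval was that of CAF1A, a deadenylase that is also induced by stress, at 4.52, 13.1 and 2.92 against 18.21, 20.8 and 8.07 CPM (1.21 ± 0.58, edgeR adjusted p = 1.0). LSM1A, of the ring of LSM proteins that binds shortened tails, stood at 0.20 ± 0.11, and AHG2, a poly(A)-specific ribonuclease, at 0.21 ± 0.12. The groups did not overlap for 6 of the 40 members, against 7.78% of all genes tested, all with small differences. The poly(A)-binding protein genes PAB8 (142, 162 and 150 against 165, 182 and 193 CPM, 0.25 ± 0.13) and PAB2 (0.14 ± 0.09) and the exosome nuclease RRP44A (0.10 ± 0.10) lay higher, and the nuclear helicase MTR4 (−0.14 ± 0.09), the exosome subunit CER7 (−0.20 ± 0.13) and AT5G35910 (−0.13 ± 0.10) lower.

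Of 25 genes of the small RNA machinery 0 passed by edgeR or DESeq2, with a median of 0.07 and 0 members at an unadjusted p under 0.05. The small RNA methyltransferase HEN1 held 26.7, 26.9 and 34.6 CPM in WT and 27.0, 31.0 and 27.9 CPM in the libraries labelled heso1-4 urt1-1 (−0.04 ± 0.12). AGO1, which carries most miRNAs, held 276, 233 and 229 against 279, 223 and 274 CPM (0.07 ± 0.12). DCL2, a dicer that makes siRNAs, held 63.7, 59.6 and 67.5 against 58.6, 46.8 and 57.1 CPM without overlap (−0.23 ± 0.14), SDN1, a nuclease that degrades small RNAs, lay lower without overlap (−0.26 ± 0.16), and SE, a miRNA processing factor, higher (0.05 ± 0.08). RDR6, which makes double-stranded RNA, differed by 0.19 ± 0.11 and AGO2 by 0.22 ± 0.14, with overlap.

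Of 52 messenger RNAs that are targets of miRNAs or tasiRNAs 51 were tested (SPL13A was not), 0 passed by edgeR or DESeq2, the median was −0.03 and 47 had intervals between −1 and 1. MYB101, a target of miR159 with a role in pollen tubes, held 41.4, 35.6 and 28.0 CPM in WT and 23.9, 24.6 and 30.1 CPM in the labelled double mutant, with overlap (−0.42 ± 0.17, unadjusted p = 0.029, edgeR adjusted p = 1.0). The other miR159 targets MYB33 and MYB65 stood at 0.04 ± 0.12 and 0.19 ± 0.12. ARF2, a tasiRNA target, stood at 0.22 ± 0.11, the auxin receptor TIR1 at 0.27 ± 0.14 and the floral regulator AP2, a target of miR172, at −0.26 ± 0.15.

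The 4 messenger RNAs known to give siRNAs when decay fails were all positive, with a median of 0.36, and none passed. NIA2, the main nitrate reductase gene, held 83.6, 114 and 77.6 CPM in WT and 222, 153 and 71.2 CPM in the libraries labelled heso1-4 urt1-1 (0.70 ± 0.38), and NIA1 58.3, 50.2 and 36.2 against 80.1, 82.7 and 48.2 CPM (0.54 ± 0.34). For NIA2, replicate 3 labelled heso1-4 urt1-1 lay below all WT libraries. SMXL4 and SMXL5, which act in phloem formation, stood at 0.18 ± 0.13 and 0.11 ± 0.16. All 4 overlapped between the groups, with an edgeR adjusted p of 1.0.

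**Figure D3:**
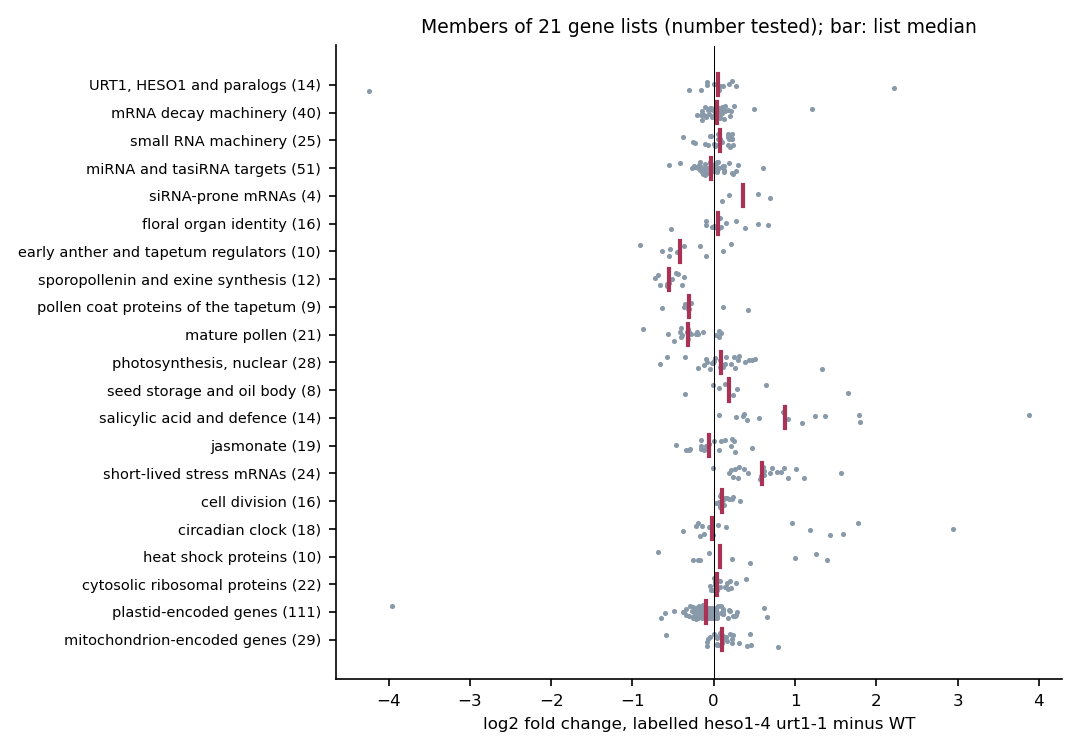
Log2 fold change of libraries labelled heso1-4 urt1-1 against WT for each tested member of 21 gene lists; points are genes and red bars list medians. Most medians lie near 0, with sporopollenin and exine synthesis at −0.55, stress messenger RNAs at 0.60 and salicylic acid and defence at 0.88, and URT1 and HESO1 are the only members that passed.

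Of 17 listed floral identity genes 16 were tested (UFO was not), with a median of 0.05 and none called by edgeR or DESeq2 or at an unadjusted p under 0.05. AP3 held 103, 92.6 and 96.4 CPM in WT and 69.1, 113 and 91.3 CPM in the libraries labelled heso1-4 urt1-1 (−0.10 ± 0.18), and AG, the stamen and carpel identity gene, 85.0, 85.6 and 65.0 against 61.5, 82.2 and 76.9 CPM (−0.09 ± 0.17). SEP4 (0.27 ± 0.15) and the meristem identity gene LFY (1.37, 1.55 and 1.01 against 2.06, 2.18 and 2.01 CPM, 0.67 ± 0.37) lay higher without overlap, SUP stood at 0.55 ± 0.30 and CAL at −0.53 ± 0.46, and none passed.

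Genes of the anther mark the stage of the buds, and their values ranged widely between libraries of a genotype. All 12 sporopollenin and exine synthesis genes had negative values, with a median of −0.55, 0 calls and overlapping groups throughout. MS2, a fatty acyl reductase of the pollen wall, held 111, 123 and 268 CPM in WT and 51.7, 116 and 138 CPM in the libraries labelled heso1-4 urt1-1 (−0.72 ± 0.57), and DRL1, a reductase of the same pathway, 57.3, 47.2 and 114 against 28.9, 50.0 and 59.6 CPM (−0.66 ± 0.48). WT replicate 3 was the highest and replicate 1 labelled heso1-4 urt1-1 the lowest, and the list summed to 784, 810 and 1733 CPM in WT and 430, 920 and 952 CPM in the labelled double mutant. CYP704B1, a cytochrome P450 of the same pathway (−0.57 ± 0.48), and the lipid-transfer-like gene AT5G07230 (−0.69 ± 0.64) turned positive, at 0.03 and 0.10, without WT replicate 3, and the list median was then 0.04.

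The other anther lists ordered the libraries differently. The 10 tested early anther and tapetum regulators (DYT1 was not tested) had a median of −0.41, with AMS, a master regulator of the tapetum, at 59.0, 52.6 and 99.2 against 26.03, 56.2 and 53.1 CPM (−0.64 ± 0.46), MYB80 at −0.91 ± 0.70, AT1G06170 at −0.55 ± 0.43 and MS1 at −0.45 ± 0.45. Their sum was highest in WT replicate 3 (232 CPM) and lowest in replicate 1 labelled heso1-4 urt1-1 (129 CPM), and without WT replicate 3 their median was −0.07. The 9 pollen coat genes had a median of −0.30, or −0.03 without replicate 1 labelled heso1-4 urt1-1, and summed to 1094 CPM in replicate 1 labelled heso1-4 urt1-1 against 2117 to 2488 CPM in the other 5 libraries. GRP20, an oleosin-like pollen coat gene, stood at −0.35 ± 0.41, GRP18 at −0.30 ± 0.40, AT1G75920 at −0.64 ± 0.57 and GRP16 at 0.43 ± 0.42. The 21 tested mature pollen genes (MYB120 was not tested) had a median of −0.31 and summed to 3215, 2136 and 1300 CPM in WT and 2093, 1910 and 1485 CPM in the labelled double mutant, with WT replicate 1 the highest, WT replicate 3 the lowest, and a median of 0.11 without WT replicate 1. CNGC18 (−0.31 ± 0.27), LLG2 (−0.39 ± 0.38) and the pollen actins ACT12 (−0.31 ± 0.33) and ACT4 (−0.28 ± 0.31) overlapped, and 0 members of these 3 lists passed by edgeR or DESeq2 or had an unadjusted p under 0.05.

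Defence genes had positive values, largest through replicate 1 labelled heso1-4 urt1-1. All 14 tested salicylic acid and defence genes were positive with a median of 0.88, and none passed. PR1 and FMO1 did not pass the count filter and were not tested, though they reached 248 and 48 counts in their highest flower libraries. PAD4, a regulator of salicylic acid signalling, held 3.07, 3.68 and 4.03 CPM in WT and 12.6, 5.004 and 5.20 CPM in the libraries labelled heso1-4 urt1-1, without overlap (1.08 ± 0.48, unadjusted p = 0.047, edgeR adjusted p = 1.0). WRKY70, a transcription factor of the same pathway, held 12.7, 31.2 and 14.3 against 90.4, 24.7 and 22.3 CPM (1.24 ± 0.64), and SARD1, an activator of salicylic acid synthesis, 0.931, 5.41 and 1.40 against 23.0, 2.33 and 1.41 CPM (1.80 ± 1.12). NIMIN1, whose protein binds the salicylic acid receptor NPR1, stood at 0.85 ± 0.48. The list summed to 275 CPM in replicate 1 labelled heso1-4 urt1-1 and to 86.2 to 129 CPM in the other 5 libraries, and without that library SARD1 stood at −0.46 and the list median at 0.24. Replicate 1 was also the highest library of both single insertions for SARD1 (9.32, 2.35 and 2.65 CPM in urt1-1, and 15.02, 4.53 and 3.05 CPM in those labelled heso1-4) and for WRKY70 (45.2 and 108 CPM against at most 38.1 CPM in their other replicates), while in WT it was replicate 2.

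Short-lived stress messenger RNAs followed a similar order of libraries. Of 24 tested, 23 were positive with a median of 0.60, and none passed. RAV1, a transcription factor gene whose messenger RNA turns over fast, held 9.31, 13.7 and 6.92 CPM in WT and 25.9, 14.8 and 19.6 CPM in the libraries labelled heso1-4 urt1-1, without overlap (1.01 ± 0.34, unadjusted p = 0.012, edgeR adjusted p = 1.0). ZAT12 (0.72 ± 0.37), BAP1 (1.56 ± 0.86) and the zinc finger gene SZF1 (22.6, 59.8 and 27.6 against 94.9, 52.9 and 40.0 CPM, 0.77 ± 0.44) overlapped. The list summed to 236, 540 and 245 CPM in WT and 637, 413 and 418 CPM in the labelled double mutant, so WT replicate 2 was among the high libraries. The list median was 1.43 when WT replicate 2 was left out, 0.30 and 0.35 when WT replicate 1 or 3 was, and 0.33 when the first replicate labelled heso1-4 urt1-1 was.

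Clock genes ranged widely between libraries of a genotype. The 18 members had a median of −0.02, and none passed. LHY, a morning gene of the clock, held 13.5, 2.72 and 1.49 CPM in WT and 128, 6.59 and 3.33 CPM in the libraries labelled heso1-4 urt1-1 (2.94 ± 2.00), COL1 12.7, 4.93 and 3.70 against 35.6, 6.80 and 6.32 CPM (1.18 ± 0.99), RVE1 stood at 0.96 ± 0.81 and COL2 at 1.58 ± 1.38. In all 4 flower genotypes the library numbered 1 was the highest for LHY and COL1. LHY stood at 141, 3.22 and 2.51 CPM in urt1-1 and at 118, 3.66 and 3.73 CPM in the libraries labelled heso1-4. Without replicate 1 labelled heso1-4 urt1-1, LHY stood at −0.29, COL1 at −0.13 and RVE1 at −0.19. The labels give no hour of harvest, and its part in these values was not tested.

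**Figure D4:**
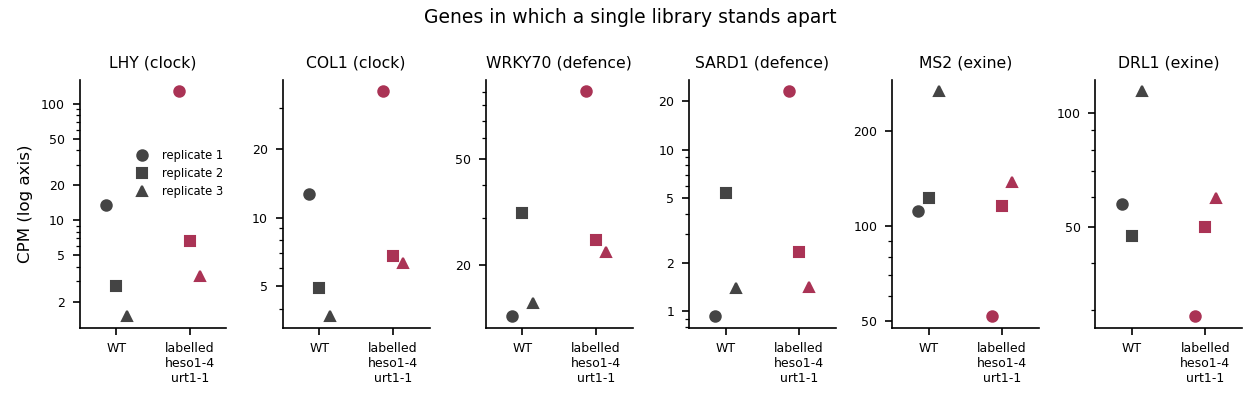
Level of 6 genes of the clock, defence and exine lists in the 3 WT libraries and the 3 labelled heso1-4 urt1-1, in CPM on log axes that differ between panels; symbols are replicates. In the clock and defence panels replicate 1 labelled heso1-4 urt1-1 is the highest library, and in the exine panels it is the lowest and WT replicate 3 the highest.

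The remaining lists gave no call. The jasmonate list (19 genes, median −0.06) included JAR1, which conjugates jasmonate to isoleucine, at −0.46 ± 0.30, with AOC3 at 0.47 ± 0.36, AOS at 0.22 ± 0.19 and JAZ10 at −0.15 ± 0.14. All 16 cell division genes were positive with a median of 0.11 and intervals between −1 and 1, among them the mitotic kinase CDKB2;2 at 10.3, 10.8 and 16.0 against 16.7, 14.4 and 15.6 CPM (0.33 ± 0.17), CYCB1;4 (0.22 ± 0.18), KN (0.24 ± 0.20) and CYCA1;1 (0.19 ± 0.18). Of 22 cytosolic ribosomal protein genes 4 did not overlap, all higher (4% of all genes tested were higher without overlap), with RPS5A at 306, 290 and 324 against 357, 389 and 365 CPM (0.27 ± 0.10), RPS15A at 0.40 ± 0.16, RPL3A at 0.20 ± 0.12 and RPS6B at 0.14 ± 0.11, and the list median was 0.04. Of 17 heat shock genes 10 were tested (median 0.08), with HSP70 at 10.9, 4.67 and 8.50 against 5.46, 5.67 and 3.88 CPM (−0.69 ± 0.30), AT5G37670 at 1.00 ± 0.51, HSFA2 at 1.40 ± 0.92 and HSP101 at −0.17 ± 0.16. The 7 small heat shock genes left out had at most 15 counts in any flower library.

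The 28 photosynthesis genes had a median of 0.09. LHCB1.1, a light-harvesting antenna gene, held 712, 336 and 75.6 CPM in WT and 942, 1067 and 825 CPM in the libraries labelled heso1-4 urt1-1, without overlap (1.34 ± 0.59, unadjusted p = 0.045, edgeR adjusted p = 1.0). Its near-identical neighbour LHCB1.3 stood at 0.39 ± 0.18, and reads shared between such copies make both values uncertain. LHCA4 stood at 0.43 ± 0.26 and RBCS2B at −0.57 ± 0.31. Of the seed storage genes, tested for 8 of 10, CRB had the smallest p at 0.164, 0.0736 and 0.0597 against 0.224, 0.317 and 0.431 CPM (1.66 ± 0.58), a level near the lower end of what was tested, with SESA5 at 0.65 ± 0.43, CRA1 at −0.36 ± 0.30 and CRU3 at 0.28 ± 0.36.

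Organelle genes showed no call either. Of 133 plastid-encoded genes 111 were tested, with a median of −0.09, and ATCG01180 (−3.96 ± 1.45, at most 0.656 CPM), ATCG01250 (−0.60 ± 0.24), ATCG00440 (−0.38 ± 0.20) and ATCG01090 (−0.34 ± 0.19) had the smallest p. Of 54 mitochondrion-encoded genes 29 were tested, with a median of 0.10, and ATMG01390 stood at 0.79 ± 0.39, ATMG01275 at 0.23 ± 0.11, ATMG00510 at 0.20 ± 0.11 and ATMG00020 at 0.41 ± 0.34. Both lists took every organellar gene ID and did not set ribosomal RNA genes apart. The part of ribosomal RNA depletion in these values was not tested. The mitochondrial share of counts was 1.40% ± 0.192 (SD, n = 3) in WT and 1.67% ± 0.426 in the libraries labelled heso1-4 urt1-1 (two-sided exact permutation p = 0.5).

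The same contrast in dry seeds, fitted together with the flowers, differed for 1 gene of 23557 (0.00425%), HESO1. In seeds HESO1 stood at 0.513, 0.776 and 0.508 CPM in WT and at 69.6, 62.3 and 65.0 CPM in the libraries labelled heso1-4 urt1-1 (log2 6.73 ± 0.26), with CPM scaled here over all 24 libraries. The difference of the 2 contrasts was −4.52 ± 0.32 (edgeR adjusted p = 1.4e-07). URT1 fell by 4.88 on the log2 scale in seeds and ARP9 rose by 1.64 ± 0.13, and neither differed between the tissues by this test (difference 0.62 ± 0.17, edgeR adjusted p = 0.75, and −0.42 ± 0.18, 0.84). AT2G45630, the gene just after URT1, held 2.18, 2.54 and 1.81 CPM in WT seeds. In seeds labelled heso1-4 urt1-1 it held 0, 0.0985 and 0.137 CPM (−4.68 ± 0.54, edgeR adjusted p = 0.00017). Its difference between the tissues did not pass (3.99 ± 0.66, edgeR adjusted p = 0.070). Seeds and flowers also differed in their RNA extraction, and the effects of tissue and extraction cannot be told apart.

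A further 4 genes were looked up in flowers after their seed values were seen. In seeds AT2G16586 rose by 2.90 ± 0.36 and AT2G34700 by 2.15 ± 0.29 in the labelled double mutant against WT (log2, edgeR adjusted p = 0.00067 and 0.0013), while AT5G24240 stood at 2.26 ± 0.45 (0.067) and AT1G64795 at −0.43 ± 0.28 (0.70). AT2G16586 (uncharacterised, chr2:7190937-7192071) held 17.38, 13.0 and 9.90 CPM in WT flowers and 49.6, 33.2 and 22.3 CPM in those labelled heso1-4 urt1-1, without overlap (1.38 ± 0.35, edgeR adjusted p = 1.0). AT5G24240, a phosphatidylinositol 4-kinase gamma-like gene, held 30.4, 19.7 and 11.2 against 41.6, 37.3 and 35.7 CPM, also without overlap (0.90 ± 0.44, 1.0), and AT2G34700, a pollen Ole e 1 family gene, overlapped (0.18 ± 0.31). AT1G64795 (uncharacterised) was at most 0.374 CPM in WT and the labelled double mutant (0.22 ± 0.49) and 15.5 to 18.6 CPM in urt1-1, and the labelled double mutant was lower than urt1-1 by −6.10 ± 0.43 (edgeR adjusted p = 0.00043). Against urt1-1, HESO1 and ARP9 were higher and AT1G64795 lower, 0.0131% of genes tested, and no other gene passed.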

How the data were processed

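RNA of flower buds was sequenced from 500 ng of total RNA per library after ribosomal RNA depletion, as stranded paired reads of 50 bases. The authors deposited raw counts per gene, not normalized, for 12 flower libraries. Per the file headers, featureCounts counted reads over whole gene spans, introns included, in reverse-stranded mode, each overlapping gene receiving the read, and no source used here says whether reads or pairs were counted. Upstream, the submitters' processing notes name HISAT2 2.2.1 with the TAIR10 build, bcl2fastq, featureCounts 2.0.6, and DESeq2 1.38.3 under R 4.2.2. In each library 66.7% to 74.0% of counts from 1 to 20 were even, so counts were also halved.

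Testing used edgeR 4.0.16 under R 4.3.3 (filterByExpr with minimum count 10 and total 15, TMM, robust quasi-likelihood fit, prior count 0.125), 1 mean per genotype over 12 libraries, at a Benjamini-Hochberg adjusted p of 0.05 over all genes. CPM use TMM-scaled library sizes and follow replicate order 1, 2, 3. DESeq2 1.42.0 was an alternative, as were other normalizations, filters, library sets and the replicate block. The edgeR p-values set a difference against the spread between replicate libraries, which the main fit estimated over all 12 flower libraries.

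The members and gene lists were chosen with earlier results of these data known. Named genes were URT1, HESO1, up to 12 genes per direction by size among those called, filled up by smallest p among genes at 1 CPM or more whose groups did not overlap, up to 4 members per list by p, and 3 neighbours per side of URT1, HESO1 and ARP9. Of 33243 gene IDs 33056 were found in the RefSeq TAIR10.1 annotation, 33043 with the same span, and 187 organellar IDs kept their deposited names. Figures were drawn in Python 3.11.15 (pandas 2.3.3, matplotlib 3.10.9).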

Additional observations from a re-analysis of the deposited data

Results flagged for a closer look

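HESO1 gave both results that differed between groups by a test of the difference. Its change in libraries labelled heso1-4 urt1-1 against WT was smaller in flowers than in seeds by −4.52 ± 0.32 on the log2 scale (edgeR adjusted p = 1.4e-07). WT flowers held 13.4 to 14.2 CPM and WT seeds 0.508 to 0.776 CPM, while the libraries labelled heso1-4 urt1-1 held 46.3 to 84.0 CPM in flowers and 62.3 to 69.6 CPM in seeds, the flower values being scaled over 12 libraries and the seed values over all 24.

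In flowers, the change of HESO1 that went with urt1-1 was lower by −3.59 ± 0.27 (log2) in libraries labelled as carrying heso1-4 than in libraries without it (edgeR adjusted p = 0.00069). All 3 libraries labelled heso1-4 (752 to 854 CPM) lay above all 3 labelled heso1-4 urt1-1, and the urt1-1 and WT libraries overlapped.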

How the results depend on the processing

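URT1 was called in every alternative run, from −4.31 to −4.14 when 1 library was left out. HESO1 (1.99 to 2.42) and ARP9 (1.19 to 1.33) kept their calls without any 1 library. With only the 6 libraries of both groups 0 genes were called higher, HESO1 standing at 2.22 (edgeR adjusted p = 0.113) and ARP9 at 1.24 (0.113). With the replicate block and those 6 libraries 0 were called higher, HESO1 standing at 2.18 (0.0741) and ARP9 at 1.24 (0.0741). With replicates 2 and 3 alone, chosen after the libraries numbered 1 were seen to stand apart, 0 were called higher, HESO1 standing at 2.00 (0.0656) and ARP9 at 1.29 (0.0511), and against urt1-1 both calls were lost (2.07 and 1.09). URT1 was the 1 gene lower in these 3 runs. DESeq2 called 9 higher and 2 lower, and without its independent filtering, an alternative added after the data were seen, 9 and 3. Leaving out 1 library gave 2 higher and 1 to 2 lower genes, the second being AT1G75945 (−2.13, adjusted p = 0.0094) without replicate 3 labelled heso1-4 urt1-1. Deviations of same-numbered libraries correlated at 0.505, 0.0597 and 0.329, and those of differently numbered libraries at −0.409 to 0.146. WT replicate 2 correlated better with replicate 3 labelled heso1-4 urt1-1 (0.119) than with replicate 2. The labels do not say that a replicate number marks a shared batch, and whether it does was not tested. The biological coefficient of variation was 0.159 with the replicate block over 12 libraries and 0.268 in the main fit. With the replicate block over 12 libraries 3 genes were higher, HESO1 (2.19), ARP9 (1.24) and AT5G43460 (0.71, adjusted p = 0.0486), and 1 lower, with 1755 genes at an unadjusted p under 0.05.

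Of the values for single genes other than URT1 and HESO1 against WT, whose changes are given above, 2142 kept direction and side of the threshold, 16 gained a call, 5 lost one and 28 changed sign, none of these called. With 1 library left out at a time, log2 values ran from −0.46 to 2.93 for SARD1, −0.29 to 4.47 for LHY, −0.13 to 1.92 for COL1, −0.19 to 1.44 for RVE1 and −0.22 to 0.82 for AT1G64795, each lowest without replicate 1 labelled heso1-4 urt1-1. They ran from −0.83 to 0.031 for CYP704B1, −1.0 to 0.096 for AT5G07230 and −0.76 to 0.13 for MS1, each highest without WT replicate 3. LURE1.3, with few counts, ran from −2.47 to 4.17, a value that depends on the prior count. The others that changed sign ran from −0.19 to 0.0066 for AT2G39750, −0.18 to 0.014 for AT2G45590, −0.049 to 0.87 for AT2G00930, −0.018 to 0.47 for AT2G34700, −0.0058 to 0.11 for RHC2A, −0.43 to 0.31 for AT2G45610, −0.099 to 0.22 for AT2G39725 and −0.24 to 0.090 for AT2G45600, and for URT1 from −0.0031 to 0.092 against urt1-1 and −0.075 to 0.084 as its departure from additivity. With replicates 2 and 3 alone, SARD1 stood at −0.87, AT2G45590 at 0.040, SMXL5 at −0.019, RHC2A at −0.034, AT2G45610 at 0.17 and AT2G45600 at 0.035. List medians moved beyond the replicate spread in 21 runs and stayed within it in the other 355. The plastid share difference ran from −2.83 to 0.149 percentage points with 1 library left out. It was −0.907 outside the genes annotated as ribosomal RNA and the 2 most counted genes. No run moved the median of all genes by over 0.1. The cause of these shifts was not tested.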
